A study of Mus musculus with 29 samples.

Results

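The genotype by refeeding interaction asks, for each gene, whether livers that express the K556R form of Prox1 answer a meal more or less than wild-type (WT) livers do. It is the refed minus fasted difference in K556R livers less the same difference in WT livers, on the log2 scale and with batch as a covariate. A positive value means that refeeding moved the gene further up, or less far down, in K556R. All 29 liver libraries of the study enter it, since it needs each of the 4 groups: 8 fasted WT, 6 refed WT, 7 fasted K556R and 8 refed K556R. The groups span 2 batches, with 3 or 4 libraries of each group in each batch.

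Every liver came from an obese male mouse. Per the labels, the mice ate chow until 8 weeks of age, when Cre recombination switched on the Prox1 K556R allele in hepatocytes, and then a diet with 45% fat and 20% fructose for 18 weeks. Livers were taken in the fasted or refed state at ZT 15 to 17, hours counted from lights on. How Cre was delivered, whether the WT mice received it and how long the mice were fasted and refed are not given in the sources used here. In this text WT means the groups labelled wild type, and K556R those labelled with the mutant. Nothing in the labels says that each library is its own animal, and the p-values reflect only how much these libraries vary. Bulk RNA cannot tell fewer cells of a type from less RNA per cell.

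Hepatocytes express Prox1, a homeobox transcription factor that works with nuclear receptors and corepressors, and SUMO is a small protein that can be attached to a lysine in it, which the mutation replaces with arginine. A meal raises insulin and glucose, which act through the transcription factors SREBP-1c and ChREBP to switch on glycolysis and fatty acid synthesis. It also ends the fasting programme of gluconeogenesis, fatty acid oxidation and autophagy. An interaction in such genes would be a larger or smaller switch between these states, which is a different quantity from a genotype difference in either state alone.

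The libraries held 14385218 to 27278251 counts, and 15603 genes had enough counts to test. None of the 92 within-group pairs of libraries was alike to within counting noise (chi-square divided by its degrees of freedom was 11.01 to 167), so none was treated as a repeat of another. Refed K556R batch 1 replicate 4 and refed WT batch 2 replicate 1 stood apart in earlier results of these data and, with fasted WT batch 1 replicate 3 (0.456), had the lowest quality weights in limma-voom (0.316 and 0.525), so values that rest on them are given with and without them. Hepatocyte markers summed to 71200 to 120900 CPM, counts scaled to the library total, over the 29 libraries.

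No gene passed the test for the interaction. The count of called genes, at a Benjamini-Hochberg adjusted p below 0.05 in edgeR's quasi-likelihood test, was 0 of 15603 (0%), and the smallest adjusted p was 0.9999. At an unadjusted p below 0.05 there were 440 genes, 2.82% of those tested, of which 219 had a larger value in K556R and 221 a smaller one. With no interaction in any gene, that threshold passes about 1 in 20 on average, a larger share. A gene or list member named for a small unadjusted p is therefore a description. DESeq2 and limma-voom also called 0 genes, with 444 and 737 at an unadjusted p below 0.05. The estimates were centred on 0: 7811 genes (50.1%) lay above it, and the median absolute value was 0.11 on the log2 scale. With any single library left out, 0 genes were called, and 357 to 715 had an unadjusted p below 0.05, with 715 in the absence of refed K556R batch 1 replicate 4.

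The test set bounds on how different the responses could be when 1 interaction is fitted for both batches. These do not bound the difference within a single batch, and the batches gave different interactions, as described below. The 95% interval of the interaction lay within a 2-fold difference for 11877 genes (76.1%) and within 1.5-fold for 8789 (56.3%). Among the 1257 genes called for refeeding in both genotypes these numbers were 1161 (92.4%) and 970 (77.2%). Those genes were chosen on the same libraries, and a call in both arms favours small standard errors and a clear response in each genotype. The larger shares thus follow in part from the choice. Of the genes called in both arms, 6 had the narrowest intervals. They included Ppp2ca, the catalytic subunit of a major protein phosphatase, which rose by 0.20 in each genotype, with an interaction of -0.01 (95% interval -0.14 to 0.12). Tcp1, a subunit of the cytosolic chaperonin, rose by 0.19 in WT and 0.15 in K556R (interaction -0.03, interval -0.17 to 0.10). Wipi2, an autophagy factor, fell by 0.25 in WT and by 0.32 in K556R (interaction -0.07, interval -0.20 to 0.07). For Ubqln1 the interval was -0.13 to 0.14, for Rbm17 -0.22 to 0.05 and for Kansl3 -0.24 to -0.0006. Single libraries moved these small values within their intervals. Tcp1 was at -0.06 without refed WT batch 1 replicate 2 and at -0.01 without refed WT batch 2 replicate 2. Ppp2ca was at -0.03 without fasted K556R batch 2 replicate 1 and at 0.01 without refed WT batch 2 replicate 2, and Ubqln1 ranged from -0.02 without refed K556R batch 1 replicate 1 to 0.02 without fasted K556R batch 2 replicate 2. Wipi2 came to -0.04 (fasted K556R batch 2 replicate 2 left out) and Rbm17 to -0.04 (refed WT batch 1 replicate 3 left out).

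Refeeding itself moved many genes in each genotype, and mostly the same way. In WT, 1667 genes were called (10.7%), 819 higher and 848 lower when refed. In K556R, 2397 were called (15.4%), 1088 higher and 1309 lower. These arms share no library. They shared 1257 called genes, 75.4% of the WT list and 52.4% of the K556R list, and all 1257 had the same sign. Of the 410 genes called in WT alone, 389 had the same sign in K556R, and of the 1140 called in K556R alone, 1098 had the same sign in WT. Across 11847 better-expressed genes (mean log2 CPM 1 or more), the responses of the genotypes correlated at Pearson's r = 0.78, a description over genes, which are not independent replicates. A call in 1 arm and not in the other is no difference between arms: none of these genes passed the interaction test.

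**Figure D1:**
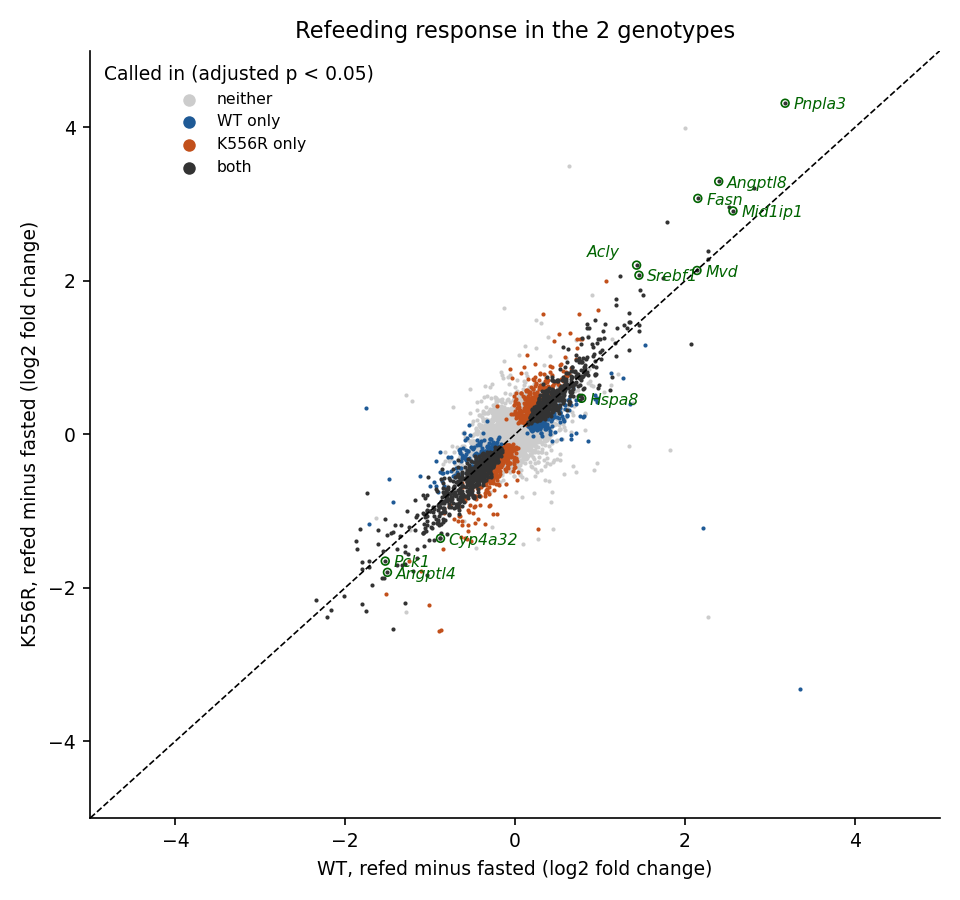
Refed minus fasted log2 fold change in WT (x axis) and K556R (y axis) for 11847 genes whose mean log2 CPM is 1 or more, coloured by the arm in which edgeR called them; the dashed line marks equal responses. Genes called in both arms lie along the line, and circled genes are named in the text, with Fasn at 2.15 in WT and 3.08 in K556R.

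Genes for making fatty acids had the largest positive median of any metabolic list. Of the 16 genes of fatty acid synthesis, 15 had an interaction above 0, with a median of 0.39 against a background in which 50.1% of genes lay above 0, and 4 had an unadjusted p below 0.05. None was called. In WT 6 of the 16 rose with refeeding and in K556R 8 did, and none fell in either. Over all genes, 10.7% and 15.4% were called in either direction in these arms, and the difference in counts was not tested. The list was larger in K556R in batch 2 and not in batch 1: the medians were 0.83 and -0.02, with 16 and 8 of the 16 above 0. Without both libraries that stand apart the median was 0.40, and it was 0.30 to 0.49 when single libraries were left out.

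Srebf1 encodes SREBP-1c, the insulin-driven activator of this pathway. It had the smallest p of the 12 listed SREBP, ChREBP and LXR regulators. Of those 12, 7 lay below 0, and only 1 had an unadjusted p below 0.05 by edgeR. The median of that list was -0.02, with -0.01 in batch 1 and 0.06 in batch 2. Srebf1 is ENSMUSG00000020538, on chromosome 11 at 60199089 to 60222581 on the minus strand of mm10. Its level was 200 to 286 CPM in fasted WT (median 224, n = 8) and 442 to 1038 in refed WT (median 613, n = 6). Fasted K556R livers had 132 to 227 CPM (median 169, n = 7) and refed ones 515 to 1294 (median 682, n = 8). Fasted and refed livers did not overlap in either genotype, while the genotypes overlapped in each state. Srebf1 rose by 1.46 in WT (adjusted p = 1.06e-07) and by 2.07 in K556R (adjusted p = 1.07e-10), both by edgeR with Benjamini-Hochberg adjustment. The interaction was 0.62 (SE 0.21, 95% interval 0.18 to 1.05), with 0.53 in batch 1 and 0.71 in batch 2. Its unadjusted p was 0.00687 and its adjusted p 0.9999 over all genes, so the extra rise is not a call.

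The enzymes downstream had wider intervals. Fasn encodes fatty acid synthase (ENSMUSG00000025153, chromosome 11, 120805846 to 120824547, minus strand). Fasted WT livers had 243 to 802 CPM (median 315) and refed WT livers 966 to 2926 (median 1864). Fasted K556R livers had 167 to 637 (median 496) and refed ones 1490 to 5462 (median 2776). The 2 highest values, 5462 and 4816, were refed K556R batch 2 replicates 3 and 4, and the ranges of refed WT and refed K556R livers overlapped. Fasn rose by 2.15 in WT and 3.08 in K556R, an interaction of 0.92 (SE 0.44, interval 0.03 to 1.82), with 0.30 in batch 1 and 1.43 in batch 2.

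Acly, which makes cytosolic acetyl-CoA from citrate, had an interaction of 0.77 (SE 0.37) and rose by 1.43 in WT and 2.21 in K556R. Acaca, the acetyl-CoA carboxylase that commits carbon to the pathway, stood at 0.60 (SE 0.27) and Elovl6, an elongase of the product, at 0.83 (SE 0.38). Each was larger in batch 2: Acly stood at 0.34 in batch 1 and 1.14 in batch 2, Acaca at 0.16 and 1.02, and Elovl6 at 0.12 and 1.58. Pnpla3, a lipid droplet protein and SREBP-1c target, had the largest estimate and the widest interval (1.14, -0.56 to 2.84). It rose from a median of 1.42 to 12.1 CPM in WT and from 1.61 to 18.0 in K556R. Of its refed K556R libraries, 2 in batch 2 reached 75.3 CPM. Angptl8, a meal-induced secreted protein, rose by 2.40 in WT and 3.30 in K556R (interaction 0.90, SE 0.40; 0.26 in batch 1 and 1.67 in batch 2).

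Other members were closer to 0. Mid1ip1, a partner of acetyl-CoA carboxylase, rose by 2.57 in WT and 2.91 in K556R (interaction 0.35, SE 0.23). Me1, the malic enzyme that supplies NADPH, rose by 0.60 in K556R and stood at 0.21, not called, in WT, with an interaction of 0.39 (SE 0.20). Thrsp had an interaction of 0.45 (SE 0.39) and Scd1, the main desaturase, one of 0.39 (SE 0.32). Without refed WT batch 2 replicate 1 Scd1 was at 0.24. Thrsp was at 0.30 without refed K556R batch 2 replicate 3 and at 0.78 without refed WT batch 2 replicate 2. Acss2, which makes acetyl-CoA from acetate, was the single member below 0, at -0.05. Its sign was not stable: it was at 0.14 without refed WT batch 1 replicate 3 and at -0.16 without refed WT batch 2 replicate 1, and above 0 in 5 of 29 such fits. With these standard errors a difference of the size estimated for Fasn or Pnpla3 could not be told from 0 once 15603 genes were tested.

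**Figure D2:**
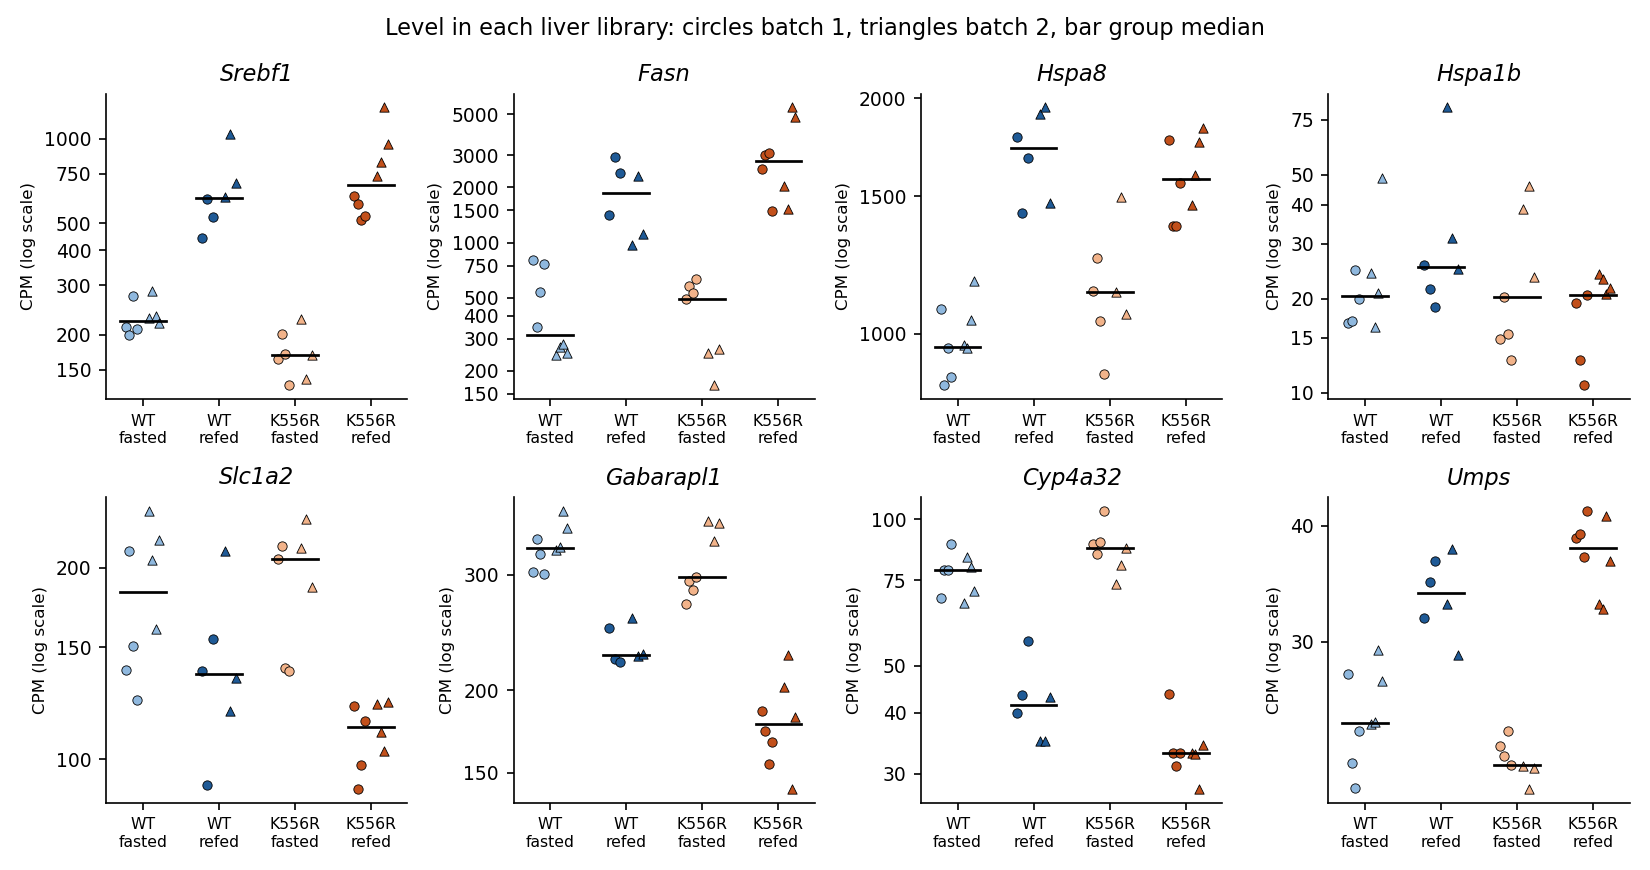
Level of 8 genes in CPM (log axis) in each library of the 4 groups, circles for batch 1 and triangles for batch 2, with a bar at the group median. Refed K556R livers reach the highest Srebf1 and Fasn values (1294 and 5462 CPM) but overlap the refed WT livers for each of the 8 genes.

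Sequences before the start of these genes were searched for short motifs in RefSeq windows of GRCm38.p6, 250 bases before to 50 after a start. Of the 16 genes 13 have a window, 14 windows in all. None of the 14 held TCACNCCAC, a form of the sterol regulatory element, which 1.24% of all 32851 windows hold. The E-box CACGTG was in 2 of the 14 (14.3%) and in 7.15% of all windows. The search covered both strands, and absence of a match says only that these letters are not in the window.

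Carbohydrate genes gave small positive values. Among 18 genes of glucose uptake and glycolysis, 13 lay above 0 (median 0.12; 0.03 in batch 1 and 0.21 in batch 2). Pklr, the liver pyruvate kinase, had an interaction of 0.39 (SE 0.17) that was similar in the batches (0.40 and 0.33): it rose by 0.60 in K556R and stood at 0.21, not called, in WT. Among 7 fructose genes 6 lay above 0 (median 0.21, and 0.08 by limma-voom), with ketohexokinase, Khk, at 0.23 (SE 0.13) and Tkfc at 0.33 (SE 0.22). None of the genes in these lists was called.

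Cholesterol synthesis responded to refeeding in both genotypes, with no common direction of the interaction. Of 20 genes, 12 rose in WT and 8 in K556R, beside 10.7% and 15.4% of all genes called in either direction. These counts were not tested against each other. The median interaction was -0.09, with 7 genes above 0. In batch 1 alone all 20 lay below 0 (median -0.67) and in batch 2 alone 19 of 20 lay above it (median 0.63). Sqle, the squalene epoxidase, stood at -0.37 (SE 0.58; -1.21 and 0.50 in the batches) and Mvd, an enzyme of the mevalonate pathway, at -0.01 (SE 0.47; -0.91 and 0.92). Without refed WT batch 1 replicate 3 the list's median was 0.14 and Sqle was at -0.03. Without refed WT batch 2 replicate 1 the median was -0.26, and without both libraries that stand apart it was -0.19. It was 0.02 without fasted K556R batch 1 replicate 2. The sign thus differed between batches and changed when either of 2 libraries was left out. Mvd was at 0.41 without refed WT batch 1 replicate 3 and at -0.26 without refed K556R batch 2 replicate 4, and lay above 0 in 14 of 29 such fits. Sqle was at -0.72 without fasted WT batch 1 replicate 1. Insig1, an SREBP regulator, rose by 1.28 in WT and 1.43 in K556R (interaction 0.15, SE 0.29). It was at 0.03 without refed WT batch 2 replicate 1 and at 0.40 without refed WT batch 1 replicate 3.

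Heat shock proteins, the chaperones that fold and rescue proteins, had values of the opposite sign. All 20 genes of the list lay below 0, with a median of -0.17, and 5 had an unadjusted p below 0.05. None was called. Refeeding raised 12 of the 20 in WT, while in K556R 6 rose and 2 fell. Of all genes, 10.7% in WT and 15.4% in K556R were called in either direction. Whether those counts differ between genotypes was not tested. In batch 2 alone 20 of 20 lay below 0 (median -0.35) and in batch 1 alone 14 of 20 did (median -0.05). By limma-voom the median was -0.11. So 14 were below 0 in both batches, beside 22.3% of all tested genes.

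Hspa8 encodes the constitutive cytosolic Hsp70 (ENSMUSG00000015656, chromosome 9, 40800984 to 40810087, plus strand). Fasted WT livers had 859 to 1170 CPM (median 964) and refed WT livers 1429 to 1948 (median 1731). Fasted K556R livers had 888 to 1495 (median 1130) and refed ones 1373 to 1835 (median 1577). The WT groups did not overlap, and the K556R groups overlapped through fasted batch 2 replicate 2. Hspa8 rose by 0.78 in WT and 0.47 in K556R, an interaction of -0.32 (SE 0.13), close in the batches (-0.29 and -0.36). Its unadjusted p was 0.0194 by edgeR.

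The inducible Hsp70 genes Hspa1a and Hspa1b had the largest negative estimates, -1.19 (SE 0.45) and -0.78 (SE 0.34). They are near-identical copies, so the split of reads between them is uncertain. Hspa1a was low, with 9 to 94 counts per library. Some fasted libraries of batch 2 were high in Hspa1b, with 1009 counts in WT replicate 4 and 719 and 819 in K556R replicates 1 and 2. Refed WT batch 2 replicate 1 had 1136. Hspa1b had 18.9 to 82.1 CPM in refed WT (median 25.3) and 10.6 to 24.1 in refed K556R (median 20.7). The highest value, 82.1, was refed WT batch 2 replicate 1, and the other 5 refed WT libraries had at most 31.4. Without that library the values were -0.76 for Hspa1a and -0.47 for Hspa1b. Dnajb1, an Hsp40 partner, moved from -0.37 to -0.19 and Hsph1, an Hsp110, from -0.54 to -0.34 when it was left out. Hsp90aa1 moved from -0.32 to -0.19, and Hspa8 stayed at -0.29. Fasted K556R batch 2 replicate 2 was the high library at the other end, and without it Hsph1 was at -0.35 and Hsp90aa1 at -0.19. The list's median was -0.15 without both libraries that stand apart, with 1 gene then above 0, and 2 genes were above 0 without refed WT batch 2 replicate 1 alone. Stip1, an Hsp70 to Hsp90 adaptor, rose by 0.64 in WT and 0.55 in K556R (interaction -0.10, and -0.02 without fasted K556R batch 2 replicate 2 or -0.15 without refed WT batch 2 replicate 3).

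Promoter sequences of the heat shock genes are shown because all 20 members lay below 0 over both batches together and heat shock genes share a known element. Of the 20 genes, 15 have RefSeq windows (GRCm38.p6), 21 in all. The core of the heat shock element, GAANNTTC, which reads the same on both strands, was in 12 of the 21 (57.1%, in 11 genes) and in 7.86% of all windows. Below are the 250 bases before the start of the Hsp70 genes with the largest negative estimates and of Hspb1, a small heat shock protein (interaction -0.34, SE 0.26, and -0.19 without refed WT batch 1 replicate 2), 5′ to 3′ in the direction of the gene, with the core in capitals.
Hspa1a (chr17:34972157-34972406, minus strand): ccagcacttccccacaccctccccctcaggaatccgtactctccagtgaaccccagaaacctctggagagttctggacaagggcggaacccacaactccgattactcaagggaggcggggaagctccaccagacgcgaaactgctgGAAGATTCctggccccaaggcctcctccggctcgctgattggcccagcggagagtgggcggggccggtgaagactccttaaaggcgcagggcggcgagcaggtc
Hspa1b (chr17:34959239-34959488, minus strand): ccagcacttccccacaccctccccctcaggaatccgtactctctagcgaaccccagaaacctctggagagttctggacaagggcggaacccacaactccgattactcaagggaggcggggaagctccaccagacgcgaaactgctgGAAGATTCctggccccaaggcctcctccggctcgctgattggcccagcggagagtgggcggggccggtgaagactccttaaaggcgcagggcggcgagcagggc
Hspb1 (chr5:135887669-135887918, plus strand): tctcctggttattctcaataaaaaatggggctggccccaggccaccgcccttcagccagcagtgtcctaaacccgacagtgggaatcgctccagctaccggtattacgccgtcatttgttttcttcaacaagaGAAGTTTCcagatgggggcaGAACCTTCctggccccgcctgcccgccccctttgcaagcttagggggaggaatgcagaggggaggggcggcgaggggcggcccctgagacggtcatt
The core begins 104 bases before the start in Hspa1a and Hspa1b, whose windows differ at 3 of 250 bases, and 117 and 97 bases before it in Hspb1. Hspb8, a member of the list whose sequence is not printed, held 0 cores in its 250 bases. The 1 match in its window reached past the start. A match is a description of these letters and does not show a factor bound there.

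Pericentral genes, those that hepatocytes around the central vein express under Wnt signals, also had mostly negative values, with the same sign in each batch. Of 15 genes 14 lay below 0, with a median of -0.20 (-0.24 in batch 1 and -0.21 in batch 2). With single libraries left out the median was -0.24 (fasted WT batch 2 replicate 1) to -0.14 (fasted K556R batch 1 replicate 2). Below 0 in both batches were 11 of 15, beside 22.3% of all genes, and above 0 in both were 0, beside 19.8%. Refeeding raised 2 of the 15 in WT and none fell, while in K556R 2 rose and 4 fell, beside 10.7% and 15.4% of all genes called in either direction in these arms. The difference between those counts was not tested. None had a called interaction.

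Slc1a2, a glutamate transporter of this zone (ENSMUSG00000005089, chromosome 2, 102658659 to 102790784, plus strand), had the smallest p of the list, 0.0328 unadjusted by edgeR. It had 124 to 246 CPM in fasted WT (median 183) and 91.2 to 212 in refed WT (median 136). Fasted K556R livers had 137 to 238 (median 206) and refed ones 89.8 to 123 (median 112). Refed and fasted K556R livers did not overlap, while the WT groups did. The fall of 0.81 in K556R was called and the WT value of -0.36 was not, and the interaction was -0.45 (SE 0.20; -0.43 and -0.49 in the batches). It was -0.33 without refed WT batch 2 replicate 1 and -0.53 without refed WT batch 1 replicate 2. Tbx3, a Wnt-driven transcription factor, stood at -0.54 (SE 0.26) and Cyp2e1, the ethanol-oxidising cytochrome P450, at -0.35 (SE 0.19). Without K556R fasted batch 1 replicate 4, the highest library at 86.3 CPM, Tbx3 was at -0.38. Glul, the glutamine synthetase that marks the innermost cell layer, had -0.11 (SE 0.10, interval -0.32 to 0.09). Slc1a4, the single gene above 0, rose by 1.34 in WT and 1.58 in K556R (interaction 0.24, 0.11 without refed WT batch 2 replicate 1 and 0.45 without fasted K556R batch 1 replicate 4).

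Bile acid synthesis genes had small negative values, 13 of 14 below 0 with a median of -0.08, and 4 above 0 with upper-quartile scaling. The batches differed: the median was 0.01 in batch 1, with 7 of 14 above 0, and -0.26 in batch 2, with 2 above 0. Over both batches it was -0.16 without refed WT batch 1 replicate 2, -0.05 without refed WT batch 2 replicate 1 and -0.17 by limma-voom. Cyp7a1, the rate-limiting enzyme (ENSMUSG00000028240, chromosome 4, 6265612 to 6275633, minus strand), had the largest. Fasted WT livers had 70.8 to 154 CPM (median 91.1), refed WT 70.2 to 176 (median 148), fasted K556R 93.8 to 157 (median 122) and refed K556R 70.0 to 194 (median 97.6). All 4 groups overlapped. Neither arm was called (0.55 in WT and -0.06 in K556R), and the interaction was -0.61 (SE 0.29; -0.78 in batch 1 and -0.42 in batch 2). Nr0b2, a repressor of Cyp7a1, stood at 0.91 (SE 0.37), with 0.11 in batch 1 and 1.77 in batch 2, and rose in K556R (0.85). It was at 0.70 without refed WT batch 2 replicate 1 and at 1.03 without fasted K556R batch 1 replicate 2. Cyp27a1 stood at -0.23 (SE 0.12) and Cyp8b1 at -0.26 (SE 0.20). Without refed WT batch 2 replicate 1 Cyp27a1 was at -0.14, and without refed WT batch 1 replicate 3 Cyp8b1 was at -0.15.

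Genes that a meal turns off fell in both genotypes. Of 17 glucocorticoid and fasting targets 14 fell in WT and 12 in K556R, beside 10.7% and 15.4% of all genes called in either direction. The difference between these counts was not tested. Their median interaction was 0.16, with 12 of 17 above 0. Without fasted WT batch 2 replicate 2 that median was -0.01. Pck1, the entry enzyme of gluconeogenesis, fell by 1.53 in WT and by 1.65 in K556R (interaction -0.12, SE 0.28; -0.24 without refed K556R batch 2 replicate 1, -0.03 without fasted K556R batch 1 replicate 2), and Igfbp1, which insulin represses, fell by 1.56 and by 1.52 (0.04, SE 0.59; -0.24 without refed WT batch 2 replicate 1, 0.34 without refed WT batch 1 replicate 3). Angptl4, a fasting-induced inhibitor of lipoprotein lipase, fell in both genotypes, by 1.80 in K556R (-0.30, SE 0.15). Dusp1, a stress and glucocorticoid target, had the opposite sign, 0.83 (SE 0.35; 0.28 and 1.51 in the batches), and neither arm was called.

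Fatty acid oxidation and ketogenesis held 25 genes, with a median interaction of -0.02 over batches that had opposite signs. In batch 1 the median was -0.17, with 3 of 25 above 0, and in batch 2 it was 0.13, with 18 above 0. Without fasted K556R batch 2 replicate 1 it was -0.07 and without refed K556R batch 1 replicate 3 it was 0.01. Ppara, its main transcription factor, fell by 0.67 in WT and by 0.84 in K556R (-0.17, SE 0.15; -0.10 without refed WT batch 1 replicate 2). Cpt1a, the gate of mitochondrial oxidation, fell by 0.48 and by 0.58 (-0.11, SE 0.18; -0.20 without refed WT batch 2 replicate 1, -0.02 without refed K556R batch 1 replicate 4). Autophagy genes lay below 0 in 15 of 20 cases (median -0.07, and -0.04 without refed WT batch 2 replicate 1). Gabarapl1, an ATG8 protein of autophagosomes (ENSMUSG00000030161, chromosome 6, 129533160 to 129542346, plus strand), led them. Its levels were 300 to 375 CPM in fasted WT (median 329), 221 to 258 in refed WT (median 226), 271 to 362 in fasted K556R (median 298) and 142 to 227 in refed K556R (median 178). Fasted and refed livers did not overlap in either genotype, and the lowest refed values were in K556R. It fell by 0.50 in WT and by 0.82 in K556R, an interaction of -0.32 (SE 0.10; -0.30 and -0.38 in the batches; unadjusted p = 0.00436). Its relative Map1lc3b fell by 0.51 and by 0.69 (-0.18, SE 0.09).

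Among genes with a mean log2 CPM of 1 or more, a named symbol and the same sign in both batches, Cyp4a32 had the smallest p. It encodes a fatty acid hydroxylase of the cytochrome P450 family and lies in a cluster of close relatives, so some of its reads are uncertain (ENSMUSG00000063929, chromosome 4, 115600969 to 115621602, plus strand). Fasted WT livers had 67.4 to 88.9 CPM (median 78.7), refed WT 35.0 to 56.2 (median 41.6), fasted K556R 73.6 to 104 (median 87.2) and refed K556R 27.9 to 43.7 (median 33.1). Fasted and refed livers did not overlap in either genotype. It fell by 0.88 in WT and by 1.36 in K556R, an interaction of -0.48 (SE 0.12; -0.62 and -0.35 in the batches), with an unadjusted p of 0.000449 and an adjusted p of 0.9999 by edgeR.

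On the positive side, Ddx41, an RNA helicase, stood at 0.32 (SE 0.09), with 0.20 in K556R and -0.11 in WT, of which only the K556R value was called. Ints6l stood at 0.50 (SE 0.15). Enpep, an aminopeptidase of the angiotensin pathway, rose by 0.37 in WT and 0.74 in K556R (interaction 0.37, SE 0.11). Umps, the enzyme that completes UMP synthesis, rose by 0.43 and 0.74 (0.31, SE 0.10). Its refed libraries had 29.01 to 37.8 CPM in WT and 32.6 to 41.5 in K556R, against 20.9 to 29.4 and 20.8 to 24.04 when fasted. Sfxn5, a mitochondrial carrier, stood at 0.20 (SE 0.07), and Cdt1, a licensing factor of DNA replication, at 0.89 (SE 0.32; 0.29 and 1.55 in the batches). Cxcl10, an interferon-induced chemokine, stood at -0.94 (SE 0.36): it rose by 0.85 in WT and stood at -0.09 in K556R.

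Some of the largest values rested on 1 library. Mup13, a major urinary protein, had the smallest p of all genes (0.000226 unadjusted; interaction -6.67, SE 1.58). It was singled out after its values were seen. Refed WT batch 2 replicate 1 had 1618 CPM of it and the other 5 refed WT libraries at most 8.23. Without that library the value was -0.97, and in batch 1 alone, where Mup13 was below 1 CPM in every library, it was 2.26. Members of this family are near-identical, so their reads are uncertain. Sult1e1, an oestrogen sulfotransferase, had 25.0 CPM in the same library and at most 1.53 in the other refed WT libraries. Its value was -3.44 (SE 0.98) with that library and -0.69 without it.

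Prox1 itself, counted over the whole gene, does not show which allele was transcribed. It is ENSMUSG00000010175, on chromosome 1 at 190118035 to 190170714 on the minus strand. Medians were 174 CPM in fasted WT, 168 in refed WT, 188 in fasted K556R and 149 in refed K556R, with ranges of 153 to 195, 125 to 184, 167 to 203 and 120 to 203. All groups overlapped, but fasted and refed K556R did so only through refed K556R batch 1 replicate 4, at 203 CPM. The lowest refed WT value, 125, was batch 2 replicate 1. Prox1 fell by 0.31 with refeeding in K556R and stood at -0.09 in WT, not called. The interaction was -0.23 (SE 0.13, interval -0.48 to 0.03). It was -0.30 without refed K556R batch 1 replicate 4 and -0.18 without refed WT batch 2 replicate 3. Among 14 genes of Prox1 and its partners 10 lay below 0 (median -0.07), among them Chd4, a remodeller of the NuRD complex (-0.19, SE 0.09), and the nuclear receptor gene Hnf4a (-0.16, SE 0.09; -0.09 without refed WT batch 2 replicate 1). Without fasted K556R batch 2 replicate 1 the median was -0.04. Among 18 hepatocyte regulators 13 did (median -0.13, and -0.07 without refed WT batch 2 replicate 1), with Nr1i3, which encodes the receptor CAR, at -0.36 (SE 0.16). The 18 genes of the SUMO machinery divided 9 to 9 (median -0.01; -0.04 without refed WT batch 1 replicate 2, 0.01 without refed WT batch 1 replicate 3).

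Stress and inflammatory lists gave no called gene either. Interferon-stimulated genes had a median of -0.11 (7 of 18 above 0; -0.22 in batch 1 and 0.12 in batch 2; 0.00 without refed WT batch 2 replicate 3 and -0.18 without fasted K556R batch 1 replicate 2), with Mx1 at -0.68 (SE 0.43) and Ifit3 at -0.43 (SE 0.30). ATF4 targets had a median of 0.14 with 14 of 17 above 0, and of 0.06 without refed WT batch 2 replicate 1. Psat1, a serine synthesis enzyme among them, stood at 0.91 (SE 0.47). It was at 0.75 without refed WT batch 2 replicate 1 and at 1.39 without refed WT batch 2 replicate 3. Chac1 fell by 1.86 in WT and by 1.49 in K556R (interaction 0.36, and 0.55 without refed WT batch 2 replicate 1). The chaperones of the endoplasmic reticulum had a median of 0.00, from 0.23 in batch 1 and -0.23 in batch 2 (-0.15 without refed K556R batch 1 replicate 4, 0.04 without refed WT batch 2 replicate 1). Circadian genes had a median of -0.04, which was -0.12 without fasted K556R batch 1 replicate 4, 0.03 without refed WT batch 2 replicate 1 and 0.02 by limma-voom. Among them Nr1d1, which encodes the clock repressor REV-ERB alpha, fell by 0.94 in K556R and had an interaction of -0.62 (SE 0.32).

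Markers of other cell types moved beside these results, and their part in them was not tested. All 8 tested cholangiocyte markers of 9 lay above 0 (median 0.58; 0.19 in batch 1 and 0.83 in batch 2; 0.36 without refed K556R batch 2 replicate 3). They included Tspan8 at 1.21 (SE 0.61), Krt19 at 0.68 (SE 0.39), Spp1 at 0.65 (SE 0.42) and Epcam at 0.55 (SE 0.40). The summed level of the 9 was 76.8 to 194 CPM in fasted WT, 60.2 to 146 in refed WT, 69.4 to 147 in fasted K556R and 83.2 to 192 in refed K556R, so the groups overlapped, and no member was at 0 in all libraries. Proliferation genes lay above 0 in 15 of 18 cases, with a median of 0.20 that was -0.27 in batch 1 and 0.83 in batch 2. Their sums were 88.7 to 178, 80.6 to 187, 70.5 to 173 and 103 to 184 CPM in the same order of groups. Macrophage markers lay above 0 in 15 of 18 (median 0.20) and stellate markers in 15 of 16 (median 0.21; -0.09 and 0.57 in the batches). In those lists the sums were 402 to 1174, 462 to 683, 365 to 954 and 536 to 829.2 CPM for macrophages, and 395 to 543, 295 to 538, 323 to 623 and 256 to 618 for stellate cells. Neutrophil markers had the lowest median of all 46 lists, -0.43, from only 3 tested of 10, all below 0 (-0.16 without fasted K556R batch 2 replicate 3 and -0.69 without refed K556R batch 1 replicate 3). Their sums were 3.83 to 8.14, 3.25 to 9.35, 4.58 to 10.8 and 3.41 to 11.6 CPM. Lymphocyte markers had a median of -0.01 (6 of 13 above 0; -0.37 without fasted WT batch 1 replicate 3, 0.08 without fasted K556R batch 2 replicate 3). Endothelial markers had one of 0.01 (8 of 13 above 0; -0.07 without refed WT batch 2 replicate 2, 0.09 without fasted K556R batch 2 replicate 3). Hepatocyte markers lay below 0 in 10 of 11 (median -0.11; 0.02 in batch 1 and -0.27 in batch 2, and -0.07 without refed WT batch 2 replicate 1). Medians of these lists moved with single libraries: proliferation was at 0.10 without fasted WT batch 1 replicate 1 and 0.35 without fasted K556R batch 1 replicate 4. Macrophage markers were at 0.01 without fasted WT batch 1 replicate 3 and 0.33 without fasted K556R batch 2 replicate 3. Stellate markers were at 0.09 without refed WT batch 2 replicate 1 and 0.36 without refed K556R batch 1 replicate 4.

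**Figure D3:**
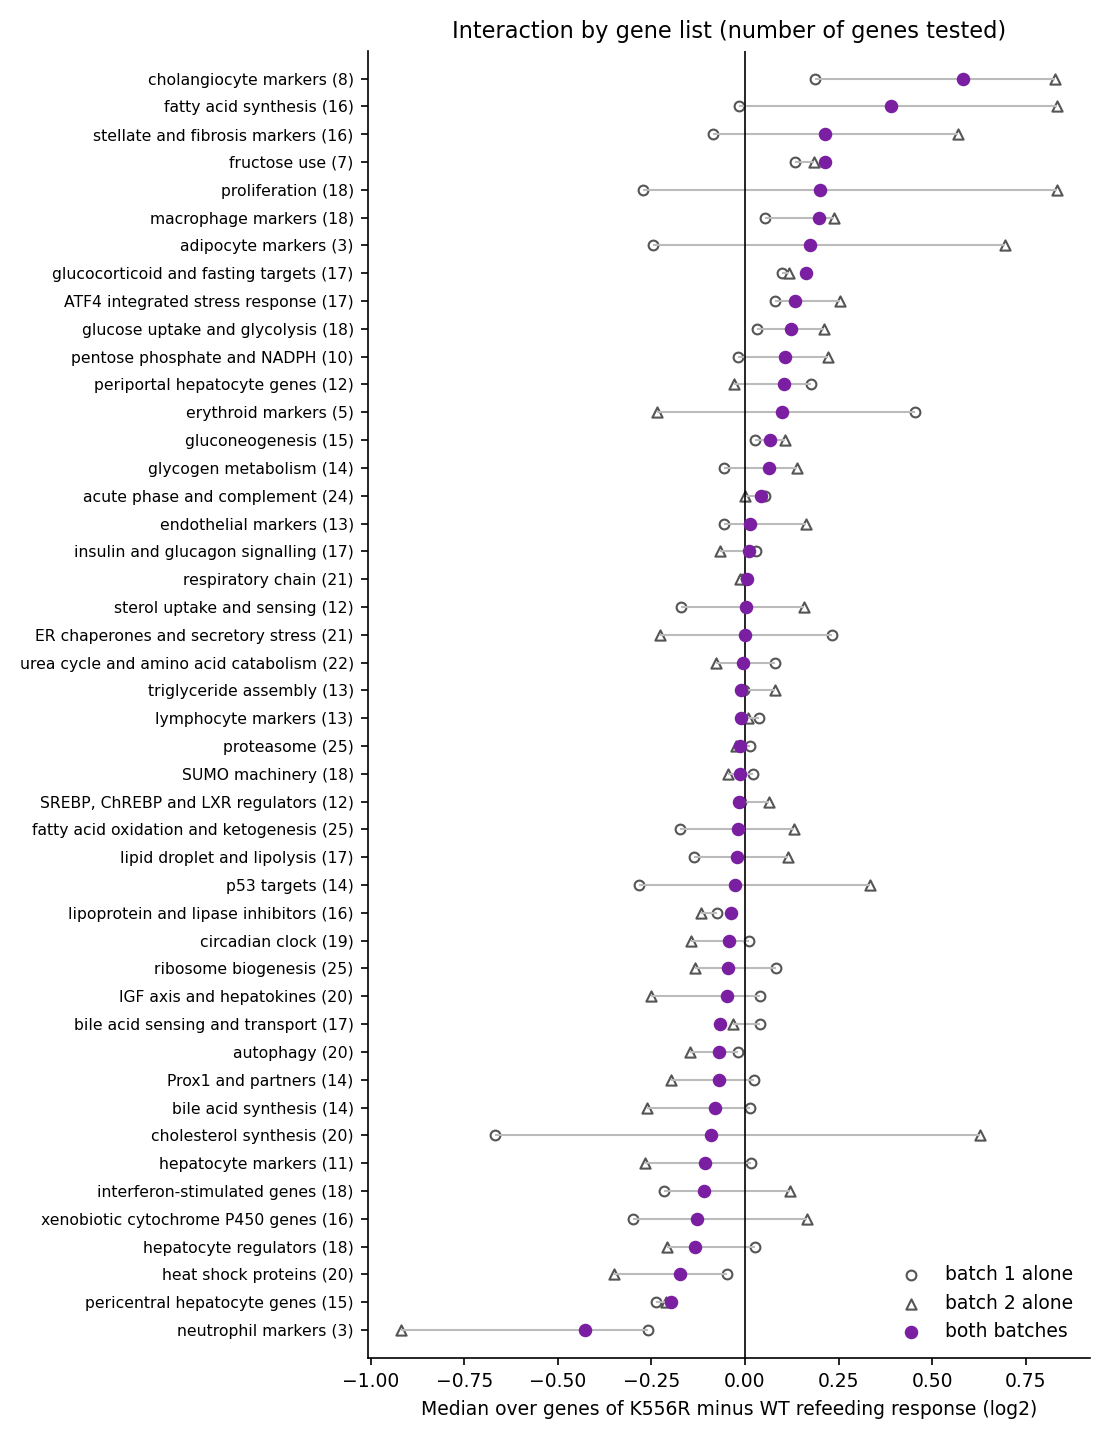
Median interaction (log2) over the tested genes of each of the 46 lists, filled for both batches together, open circles for batch 1 alone and open triangles for batch 2 alone. Fatty acid synthesis (0.39) and heat shock proteins (-0.17) lie on opposite sides of 0, and cholesterol synthesis runs from -0.67 in batch 1 to 0.63 in batch 2.

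The batches gave different interactions gene by gene. Over the same 11847 better-expressed genes, the interaction in batch 1 and in batch 2 correlated at Pearson's r = -0.58 and Spearman's rho = -0.29, with the same sign for 4816 (40.7%). The batches share no library. Without refed K556R batch 1 replicate 4 r was -0.37, without refed WT batch 2 replicate 1 it was -0.45 and without both it was -0.27, with 48.8% of genes then of the same sign. Those values without libraries were chosen after seeing the data. The response within WT correlated between batches at 0.47 and that within K556R at 0.04, and these became 0.55 and 0.24 without both. Fitted alone by edgeR, batch 1 had 473 genes (3.03%) at an unadjusted p below 0.05 for the interaction and batch 2 had 1650 (10.6%). Neither fit called a gene. A test of the difference between the batches' interactions called 0 genes by edgeR (smallest adjusted p = 0.101), with 1492 (9.56%) at an unadjusted p below 0.05. The shares in batch 2 and in this test exceed what that threshold passes on average with no difference in any gene. The 2.82% over both batches together did not. Genes are not independent, so these shares are a description. Counts of the test between batches are less stable: DESeq2 called 64, and edgeR called 60 without refed WT batch 2 replicate 3. By edgeR there were 18 without refed K556R batch 1 replicate 2 and 17 without refed K556R batch 1 replicate 3. Without fasted WT batch 2 replicate 3 there was 1.

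**Figure D4:**
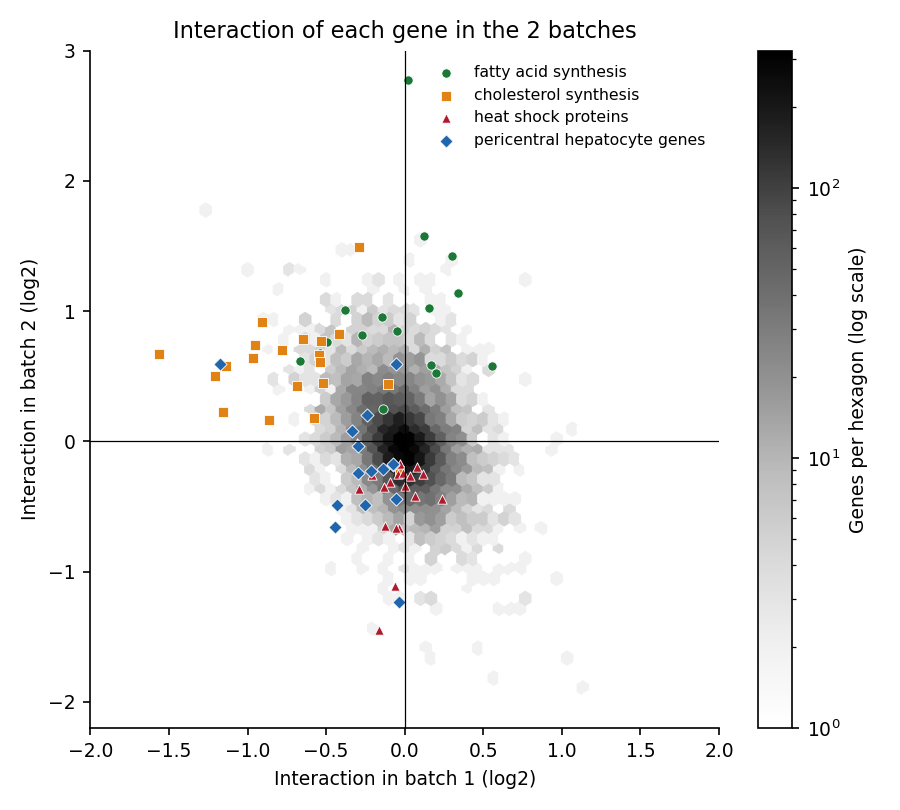
Interaction (log2) of each gene in batch 1 (x axis) and batch 2 (y axis), as hexagons shaded by the number of genes, with 60 of 11847 genes beyond the axes; coloured points are members of 4 lists. Cholesterol synthesis genes lie at upper left and heat shock genes below 0 in batch 2, while the cloud slopes downward (r = -0.58).

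To read the size of the refeeding response without choosing and measuring on the same libraries, genes called in WT of 1 batch were read in the other. The 855 genes of batch 1 had a median response in batch 2, in the direction of the choice, of 0.34 in WT and 0.43 in K556R. The median difference was 0.08, and 509 genes (59.5%) responded more in K556R. The 596 genes of batch 2 read in batch 1 had 0.35 and 0.40, a median difference of 0.07, and 394 (66.1%) responded more in K556R. Genes called in K556R gave the reverse: the median difference was -0.05 for the 1512 genes of batch 1 and -0.02 for the 1927 of batch 2. Each choice therefore found a slightly larger response in the genotype that had not made it. Leaving out refed WT batch 2 replicate 1 lowered the WT-chosen differences to 0.05 and 0.02. The first was 0.14 without refed WT batch 1 replicate 1, and the second 0.10 without fasted WT batch 1 replicate 2.

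**Figure D5:**
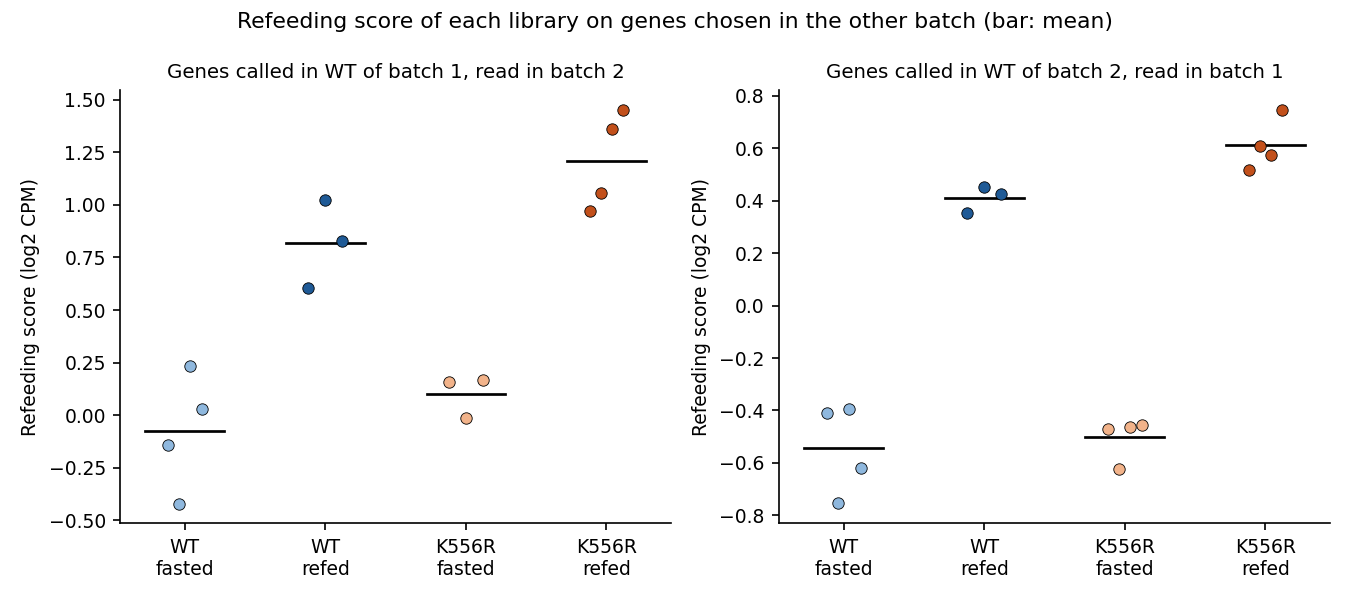
Score of each library, the mean log2 CPM of genes that rose less that of genes that fell, for genes called in WT of the other batch; points are libraries and bars group means. Refed libraries stand above fasted ones in both genotypes, and K556R refed means (1.21 and 0.61) lie above WT refed means (0.82 and 0.41). Fasted means were also higher in K556R (0.10 and -0.50) than in WT (-0.08 and -0.54), so the refed gap is not the interaction. The interaction of the score was 0.21 and 0.16, beside an SD within groups of 0.22 and 0.11. For genes called in K556R, not drawn, it was -0.24 and -0.20.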

How the data were processed

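The authors deposited 1 table of unnormalised gene counts, covering 29 libraries of poly-A liver RNA. Per the submitters' processing notes, the build was mm10 and the tools included HTSeq, STAR, STAR-Fusion, TopHat, edgeR and DESeq2; which tool counted, its strand setting and the annotation are not given in the sources used here, so overlapping genes and close paralogs are uncertain. Of 54532 identifiers, 54495 matched a symbol in GENCODE M21 (GRCm38), and the 37 others held 0.0009% of counts.

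Genes were kept by filterByExpr (at least 10 counts, total of at least 15); the 15603 genes kept hold 99.92% of counts. Libraries were scaled by TMM, and edgeR 4.0.16 fitted a quasi-likelihood model with 4 groups and an additive batch term (R 4.3.3). The common biological coefficient of variation was 0.191. A call means a p below 0.05 after Benjamini-Hochberg adjustment over all tested genes. Fold changes are log2, standard errors come from the F statistic, and CPM uses TMM-scaled totals. Totals of 14385218 to 27278251 counts leave counting error small for genes above a few CPM, and copies made by PCR cannot be removed.

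Fold changes "in batch 1" and "in batch 2" come from edgeR on that batch alone. Each list is described by its counts and median, with no test. The 46 lists, the members and the rule for named genes were chosen with earlier results of these data known. By that rule, with no gene called, the text draws on Prox1, the 15 genes per direction with the smallest p among named symbols whose log2 CPM averages 1 or more and whose sign is the same in both batches, up to 4 members of each list with the smallest p, a panel of refeeding genes, and up to 6 genes with the narrowest interval. Further members are named to describe a list, and Mup13 was added after its values were seen.

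Alternatives used DESeq2 1.42.0, limma 3.58.1 and other filters, scalings, batch terms and left-out libraries. The procedure was run on simulated counts in which a known interaction was the same in both batches. Its outcome is not reported here, so it does not show which sizes of interaction these libraries could detect. Figures used Python 3.11.15 with matplotlib 3.10.9. Some genes of the panel and lists are not reported here.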

Additional observations from a re-analysis of the deposited data

Results flagged for a closer look

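Among 72 sets of values checked (8 list scores and 10 genes in each of 4 groups), 1 held a library far from the rest of its group; chance gives about 1 in 20. The heat shock score of fasted K556R batch 2 replicate 2 was 6.45 against 6.15 for the next library of the 7 (batch-adjusted mean log2 CPM), a gap of 0.579 of the group's range. Without that library the list's median interaction was -0.15 in place of -0.17.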

How the results depend on the processing

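The count of called interaction genes was 0 in the main result and under each alternative run, covering scaling, filter, tool, batch term, single batches and left-out libraries; the smallest adjusted p under any of them was 0.0505, in batch 1 alone. With a replicate block in place of the batch term, 0 interaction genes, 1466 WT refeeding genes and 2032 K556R refeeding genes were called, and no call on the interaction changed. The deviations of same-numbered libraries had correlations between -0.50 and 0.35 (40 pairs, median -0.18). No value for other pairs is given, so this range does not show whether same-numbered libraries share more than a number. WT refeeding genes numbered 855 in batch 1 alone and 596 in batch 2 alone, and K556R refeeding genes 1512 in batch 1 alone; fewer libraries entered these fits. The test between batches called 136 genes with no filter and 64 by DESeq2, and 0 to 60 with 1 library left out; the cause was not tested. Genes chosen in K556R gave median differences of -0.0492 and -0.0245 where those chosen in WT gave 0.0758 and 0.0664. Among medians and gene values larger than the spread between libraries, in batch 1 alone those of fatty acid synthesis (-0.016), Prox1 and partners (0.0247) and hepatocyte regulators (0.0281) and of Mup13 (2.26) changed sign; smaller ones, such as bile acid synthesis (0.0142), hepatocyte markers (0.0152), ribosome biogenesis (0.0822), stellate markers (-0.0865) and proliferation (-0.2726), did so too; the cause was not tested. Of the other values for single genes, 55 moved by more than the spread between libraries and 3259 did not.

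Groups of 3 or 4 libraries per batch limit every value within a batch. The fasting and refeeding times, the animals behind the libraries and the transcribed allele are not known here. CPM is relative, so a rise of abundant genes lowers all others. Lists share members and vary with single livers, so their medians carry no test.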
